A study of Mus musculus with 6 samples.

Results

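A fixed list of 10 genes of the Hippo-YAP pathway was followed, and all 10 were found among the 23337 gene symbols counted in each library. They are the coactivator genes Yap1 and Wwtr1, the DNA-binding partner gene Tead1, the kinase genes Lats1 and Lats2, the regulator genes Amotl2 and Ajuba (counted under its older symbol Jub), and the target genes Ctgf, Cyr61 and Ankrd1. The RNA came from alveolar type II (AT2) cells of mice, which are the surfactant-producing progenitors of the lung alveolus, sorted as Tomato-positive cells 10 days after Pseudomonas aeruginosa lung injury. The 3 mutant libraries were from SpC-CreER/Dlk1flox/ROSA-Tomato mice and the 3 wild-type libraries from SpC-CreER/ROSA-Tomato mice, so both groups carried the inducible Cre driven by the surfactant protein C promoter, the reporter and the injury, and differed by the floxed Dlk1. A protocol label also mentions culture for 8 days, and the labels leave unclear if that applies to these RNA samples. They also do not say that each library came from its own animal, so p-values measure the spread between libraries.

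YAP, the product of Yap1, and TAZ, the product of Wwtr1, are transcriptional coactivators that bind no DNA themselves and reach their target genes through TEAD proteins. The kinases LATS1 and LATS2, switched on by the MST kinases, phosphorylate both coactivators and keep them in the cytoplasm. This control acts on protein location and stability, so transcript levels of Yap1 and Wwtr1 do not measure it, whereas target genes such as Ctgf and Cyr61 are commonly read as its output. In the lung, YAP and TAZ are known for their part in the passage of AT2 cells to flat alveolar type I (AT1) cells after injury.

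The shared feature that can be seen in sequence is the short core of the site that TEAD proteins bind, GGAATG, which reads CATTCC when the site lies on the other strand. RefSeq promoter windows (GRCm38.p6, from 250 bases before to 50 bases after each start site) were found for 8 of the 10 genes, and not for Tead1 or Ctgf. The core was present on either strand in 7 of these 8 genes, where 16.6% of all 27025 genes with such windows and 14.7% of all 32851 windows held it. Lats1 was the gene without it. Each match is printed with its flanks, on the strand of the gene and from 5′ to 3′, because it is the feature that most of these genes had in common. Capitals mark the core.

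Yap1, chr9:8004705-8004764, minus strand: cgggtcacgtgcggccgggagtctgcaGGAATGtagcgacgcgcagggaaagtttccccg
Wwtr1, chr3:57576014-57576073, minus strand: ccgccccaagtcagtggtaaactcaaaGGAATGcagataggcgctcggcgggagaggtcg
Cyr61 (RefSeq symbol Ccn1), chr3:145650056-145650115, minus strand: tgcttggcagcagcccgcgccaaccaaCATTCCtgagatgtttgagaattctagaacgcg
Ankrd1, distal match, chr19:36120022-36120081, minus strand: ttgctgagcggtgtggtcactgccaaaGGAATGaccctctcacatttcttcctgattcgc
Ankrd1, proximal match, chr19:36119935-36119994, minus strand: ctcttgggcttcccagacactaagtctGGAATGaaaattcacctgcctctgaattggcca
Amotl2, chr9:102717712-102717771, plus strand: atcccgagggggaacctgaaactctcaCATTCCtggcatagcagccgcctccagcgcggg
Ajuba, distal match, chr14:54577815-54577874, minus strand: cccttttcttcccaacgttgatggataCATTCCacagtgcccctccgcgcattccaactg
Ajuba, proximal match, chr14:54577793-54577852, minus strand: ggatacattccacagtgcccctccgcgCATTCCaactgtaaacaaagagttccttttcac
Lats2, chr14:57746102-57746131, minus strand: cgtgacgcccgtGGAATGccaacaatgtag

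The match of Amotl2 began 65 bases before its start site, that of Cyr61 103 bases before, that of Wwtr1 136 bases before and that of Yap1 141 bases before. Ankrd1 held 2 matches, at 210 and 123 bases before its start, and Ajuba held 2, at 186 and 164 bases before, on the opposite strand. The Lats2 match lay just after the start, at base 5 of the transcript. In the other lists used here the core was found in 9 of 23 further Hippo pathway genes, 3 of 11 further YAP target genes and 1 of 8 immediate early genes with a window. Among cell type markers it was found in 3 of 8 AT2, 0 of 9 AT1 and 2 of 2 mesothelial genes, and in 1 of 4 fibroblast, 1 of 4 smooth muscle and pericyte, 1 of 5 endothelial, 0 of 3 leukocyte, 0 of 2 ciliated and 0 of 1 club cell genes. A second motif, that of the AP-1 factors (TGANTCA, searched on both strands; neither motif contains the other), was found in 0 of the 8 genes, against 8.97% of all genes. A match is a description of letters and not evidence that a factor bound there.

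**Figure D1:**
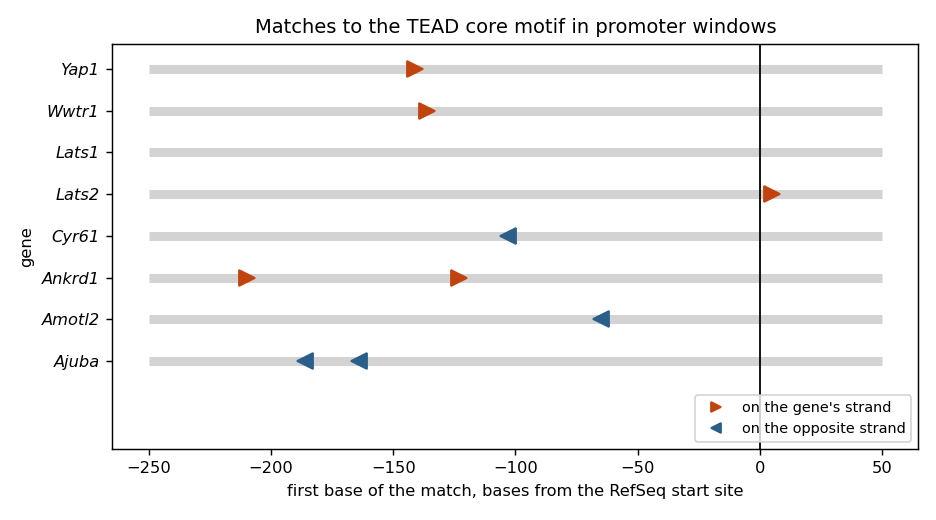
Position of each match to the TEAD core in the promoter windows of the 8 genes that had one (horizontal axis, bases from the RefSeq start site; grey bars span the window of 250 bases before to 50 after it; arrowheads give the strand). Matches lay before the start site in 6 genes and just after it in Lats2, and Lats1 had none; for Wwtr1 and Lats2, which have 2 windows each, the first is drawn.

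Library totals ran from 22511461 to 30695994 counts. The targeted gene Dlk1 had at most 2 counts in any library of either group, so its counts could not check the labels. AT2 markers were abundant in all 6 libraries, with a summed level of 11 genes between 128815 and 178579 CPM (CPM, counts scaled to a common library size after TMM normalisation, the trimmed mean of M-values; this scale is used throughout). One library stood apart: mutant 1 had the highest value of the 6 for all 8 fibroblast, all 8 endothelial, all 7 smooth muscle and pericyte, all 4 mesothelial, all 5 leukocyte and all 3 club cell markers. Fibroblast markers summed to 205.5 CPM in mutant 1 and to 3.55 to 7.09 CPM in the other 5 libraries, where Lum and Tcf21 had no counts, and endothelial markers summed to 116.7 CPM against 5.89 to 10.6 CPM. Wild type 1 had the lowest summed level of 10 immediate early genes, such as Fos, Jun and Egr1, at 11264 CPM against 13341 to 18111 CPM elsewhere. AT1 markers (10 genes) summed to 3196 to 3802 CPM across the 6 libraries, a sum led by Ager. Of the 10 AT1 genes, 2 were higher in every mutant than in every wild-type library, beside 5.23% of all tested genes, and 0 were lower. These 2, Akap5 and Cav1, had log2 fold changes (mutant minus wild type) of 0.77 and 1.18, each with an edgeR adjusted p of 0.737. Of the 11 AT2 genes, 2 were lower in every mutant than in every wild-type library, beside 6.43% of all tested genes, and 0 were higher. These 2, Sftpc and Cxcl15, had log2 fold changes of -0.18 and -0.42 (edgeR adjusted p = 0.790 and 0.737). The AT2 marker sum was lowest in mutant 1, at 128815 CPM against 146347 to 178579 CPM in the other 5 libraries. These features of mutant 1 and wild type 1 are given beside the results they touch.

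Mutant and wild-type cells were compared to ask whether deleting Dlk1 in AT2 cells goes with a different expression of the pathway during repair. None of the 10 genes passed the test. The log2 fold change was positive in 6 and negative in 4, with a median of 0.08, where all 12899 tested genes had a median of 0.00 and 51.1% positive. Ctgf had the largest positive value and Ankrd1 the largest negative one, and the other 8 genes lay between -0.21 and 0.34. The edgeR quasi-likelihood test gave adjusted p-values from 0.737 to 0.964 for the 10 genes, and it called 0 genes in the whole table (0% of 12899 tested). At an unadjusted p under 0.05, it gave 1 of the 10 genes, Ajuba, beside 6.58% of all tested genes. In the edgeR fit with a replicate block it gave 0 of the 10 (Ajuba unadjusted p = 0.0626, adjusted p = 0.717). DESeq2 also called 0 of the 10 (adjusted p from 0.682 to 0.995), with 0.265% of 17384 genes called overall. Without mutant 1 the split was again 6 positive and 4 negative, with a median of 0.19, and without wild type 1 it was 5 and 5, with a median of 0.01.

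The groups did not overlap in 2 of the 10 genes. Lats2 was higher in each mutant than in each wild-type library, as were 5.23% of all tested genes, and Yap1 was lower in each mutant library, as were 6.43%. For Lats2 this held under all 4 scalings examined (TMM, library total, DESeq2's size factors and upper quartile). For Yap1 it held under TMM and DESeq2's size factors and not under the other 2, and Ajuba parted under DESeq2's size factors alone. Taken by replicate number, a pairing that rests on these data alone, Wwtr1 and Lats2 were higher in the mutant in 3 of 3 pairs, as were 15.3% of tested genes, and Yap1 and Amotl2 were lower in 3 of 3, as were 15.6%.

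**Figure D2:**
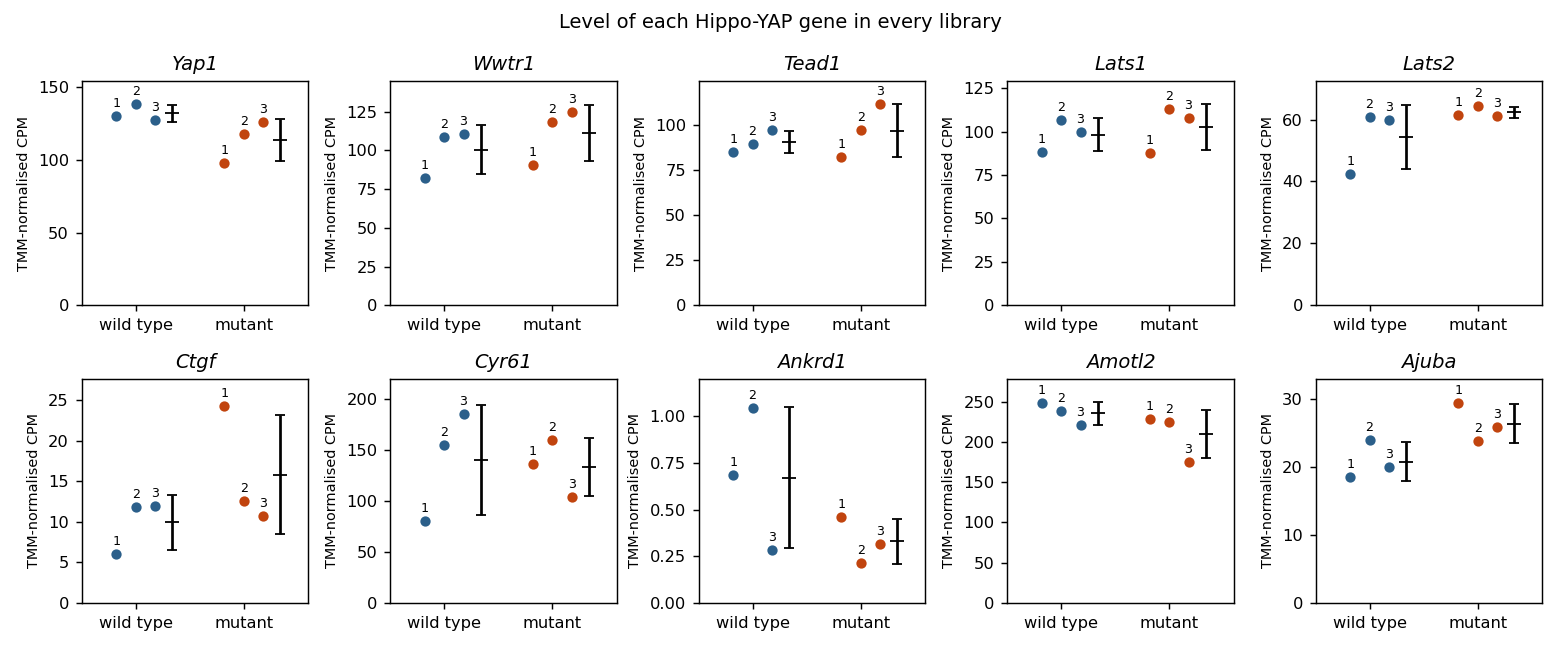
Level of the 10 genes in every library (vertical axes, TMM-normalised CPM, from 0; numbers are replicate numbers; the black mark and bar beside each group are the mean and SD of its 3 libraries). Ctgf was high in mutant 1 (24.2 CPM) and low in wild type 1 (6.03 CPM), and the other 4 libraries lay between 10.7 and 12.5 CPM.

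Among the coactivators, Yap1 stood at 98.1, 117.9 and 126.2 CPM in mutants 1 to 3 and at 130.2, 138.3 and 127.6 CPM in wild types 1 to 3. Every mutant library was thus below every wild-type one, although wild type 3 was only 1.06% above mutant 3. The means were 114.1 ± 14.5 and 132.1 ± 5.61 CPM (SD, n = 3 each). The fold change was 0.86, with a 95% interval of 0.73 to 1.02 and an edgeR adjusted p of 0.739. In sorted bulk cells, fewer cells of a kind and less RNA per cell cannot be told apart. Mutant 1, the library with transcripts of other cell types and the lowest AT2 marker sum, had the lowest Yap1 level. Without mutant 1 the log2 fold change moved from -0.21 to -0.11. Its part in the result was not tested further.

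Wwtr1, which encodes TAZ, the partner of YAP with similar functions, leaned the other way. It stood at 90.8, 118.3 and 124.8 CPM in the mutant libraries and at 82.4, 108.7 and 110.8 CPM in the wild types, and the groups overlapped because mutant 1 lay below wild types 2 and 3. The log2 fold change was 0.14 ± 0.16 (SE; edgeR adjusted p = 0.843). Without wild type 1, the lowest library, it was 0.02, and without mutant 1 it was 0.27. The edgeR unadjusted p was 0.389 in this fit and 0.0813 with the replicate block, where the adjusted p was 0.744.

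The balance of both coactivators can be read within each library, where library size plays no part. Wwtr1 had 0.925, 1.003 and 0.989 counts for each Yap1 count in mutants 1 to 3, and 0.632, 0.785 and 0.868 in wild types 1 to 3. All 3 mutant ratios were above all 3 wild-type ratios, with means of 0.972 ± 0.041 and 0.762 ± 0.120 (SD, n = 3 each). This pair was chosen for the roles of the genes and with earlier results known, so no test is given. Such a parting from Yap1 was common: 20.0% of the other tested genes had a higher ratio to Yap1 in every mutant than in every wild-type library. Per kilobase of merged coding-transcript exons (GENCODE M21 on GRCm38, not the annotation behind the counts), the level of Yap1 averaged 29.5 ± 3.33 and that of Wwtr1 22.2 ± 3.41 CPM per kilobase (SD, n = 6 libraries), and Yap1 was the higher in each of the 6.

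**Figure D3:**
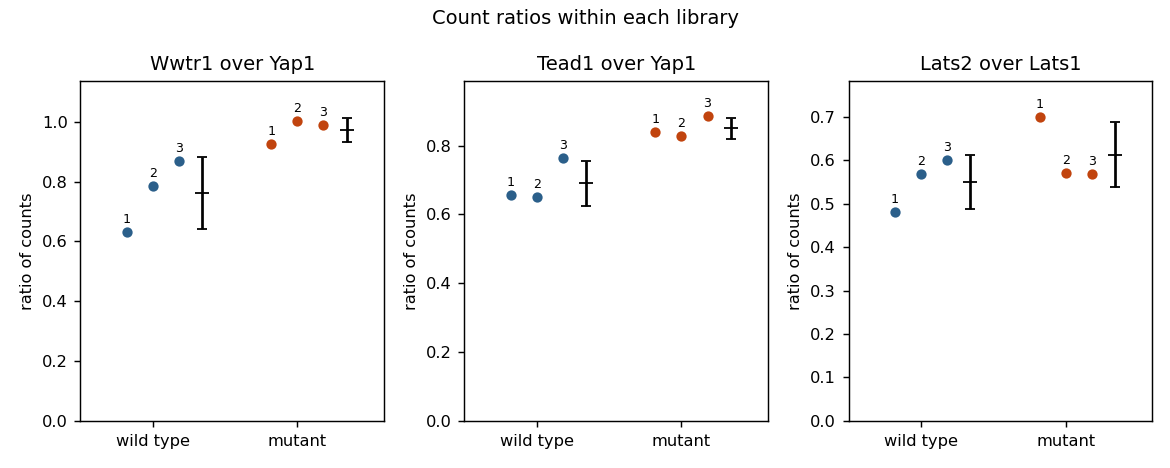
Ratio of the counts of 2 genes within each library (vertical axes from 0; numbers are replicate numbers; black mark and bar, mean and SD of 3 libraries). The ratios of Wwtr1 and Tead1 to Yap1 were higher in every mutant library, while Lats2 over Lats1 overlapped between the groups.

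TEAD proteins carry the coactivators to DNA. Tead1 stood at 82.3, 97.5 and 111.7 CPM in the mutants and at 85.4, 89.8 and 97.6 CPM in the wild types. The groups overlapped, with mutant 1 the lowest of all 6 and mutant 3 the highest, and the log2 fold change was 0.09 ± 0.12 (SE; edgeR adjusted p = 0.866). Its paralog Tead3 stood at 41.7, 37.1 and 39.5 CPM in the mutants and at 45.2, 48.5 and 42.3 CPM in the wild types. Those groups did not overlap, although the log2 fold change of -0.20 ± 0.09 did not pass the test (edgeR adjusted p = 0.737). Tead4 averaged 18.8 ± 1.37 against 18.7 ± 0.16 CPM, and Tead2 was near the lower end of detection, at 0.39 to 1.59 CPM. Per kilobase of exon, Tead3 had the highest level of the family in these sorted cells, at 13.8 ± 1.31 CPM per kilobase. Tead1 followed at 9.36 ± 1.06, then Tead4 at 5.23 ± 0.24 and Tead2 at 0.36 ± 0.13 (SD, n = 6 libraries). These ranges did not overlap between neighbours in that order. In CPM Tead1 was above Tead3, and their order per kilobase rests on merged exon lengths of 10051 bases for Tead1 and 3080 for Tead3. Those lengths are from GENCODE M21 and not from the annotation behind the counts, so the order could differ with other lengths.

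The genes of the kinases that restrain YAP and TAZ did not pass the test. Lats1 stood at 87.9, 112.9 and 107.9 CPM in the mutants and at 88.2, 107.0 and 99.6 CPM in the wild types, with overlap and with the lowest value of each group in its library 1. Its fold change was 1.05, with a 95% interval of 0.86 to 1.27 (edgeR adjusted p = 0.909). Lats2, which is itself a YAP target and so part of a negative feedback loop, stood at 61.6, 64.5 and 61.3 CPM in the mutants and at 42.4, 60.9 and 59.8 CPM in the wild types. Wild type 1 was low, and the lowest mutant was only 0.607% above wild type 2 and 2.40% above wild type 3. The log2 fold change was 0.20 ± 0.14 (SE; edgeR adjusted p = 0.773), and without wild type 1 it was 0.05. With all 6 libraries the fold change of Lats2 was 1.15, with a 95% interval of 0.91 to 1.45. The count ratio of Lats2 to Lats1 was 0.700, 0.571 and 0.568 in mutants 1 to 3 and 0.481, 0.569 and 0.600 in wild types 1 to 3, so it overlapped.

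Amotl2 and Ajuba act on the pathway from cell junctions. AMOTL2, an angiomotin, binds YAP and holds it back, and its gene is also a YAP target. Its level was 228.7, 225.4 and 175.4 CPM in the mutants and 248.2, 238.0 and 220.5 CPM in the wild types. Mutant 3 was the lowest, and mutants 1 and 2 lay above wild type 3. The fold change was 0.89, with an interval of 0.73 to 1.08 (edgeR adjusted p = 0.773). The log2 fold change moved from -0.17 to -0.05 without mutant 3. With library quality weights, limma-voom gave -0.30 with an unadjusted p of 0.0246 and an adjusted p of 0.458. The LIM protein AJUBA binds LATS kinases and limits their action on YAP. Ajuba stood at 29.5, 23.8 and 26.0 CPM in the mutants and at 18.5, 24.0 and 20.0 CPM in the wild types, where only mutant 2 and wild type 2 crossed. Its log2 fold change of 0.34 ± 0.13 (SE) had an interval of 0.03 to 0.65 and the lowest unadjusted p of the 10 genes, 0.035, with an edgeR adjusted p of 0.737. The log2 fold change of Ajuba was 0.26 without mutant 1, 0.26 without wild type 1 and 0.18 without both (edgeR unadjusted p = 0.227).

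Target genes are the usual output measure, and the 3 genes followed as targets, Ctgf, Cyr61 and Ankrd1, differed in sign and spread. Lats2 and Amotl2, named above as YAP targets too, had log2 fold changes of 0.20 and -0.17. Ctgf encodes a secreted matricellular protein made by many stromal cells as well as by epithelium. It stood at 24.2, 12.5 and 10.7 CPM in mutants 1 to 3 and at 6.03, 11.8 and 11.9 CPM in wild types 1 to 3. Mutant 1 and wild type 1 were 4.01-fold apart, while the 4 remaining libraries overlapped between groups. The mean fold change of 1.59 had an interval of 0.86 to 2.95 (edgeR adjusted p = 0.739), and the log2 fold change moved from 0.67 to 0.22 without mutant 1, to 0.41 without wild type 1 and to -0.03 without both. Mutant 1 was also the library in which fibroblast and endothelial markers were highest, and their part in its Ctgf level was not tested.

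Cyr61, a matricellular relative of Ctgf and a fast-responding YAP target, stood at 135.5, 159.8 and 104.0 CPM in the mutants and at 80.2, 154.2 and 185.1 CPM in the wild types. The wild-type libraries alone spanned 2.31-fold and enclosed all 3 mutants. The log2 fold change was -0.07 ± 0.30 (SE), with an interval of 0.58 to 1.55 as a fold change and an edgeR adjusted p of 0.964. It ranged from -0.35 without wild type 1 to 0.18 without wild type 3. Ankrd1, a nuclear ankyrin-repeat protein best known from stressed muscle, was barely detected, with 15, 5 and 9 counts in the mutants and 15, 26 and 7 counts in the wild types. That is 0.21 to 1.04 CPM, and the groups overlapped. At this depth its interval ran from 0.17-fold to 1.46-fold (edgeR adjusted p = 0.768), and these few counts leave its difference poorly measured.

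**Figure D4:**
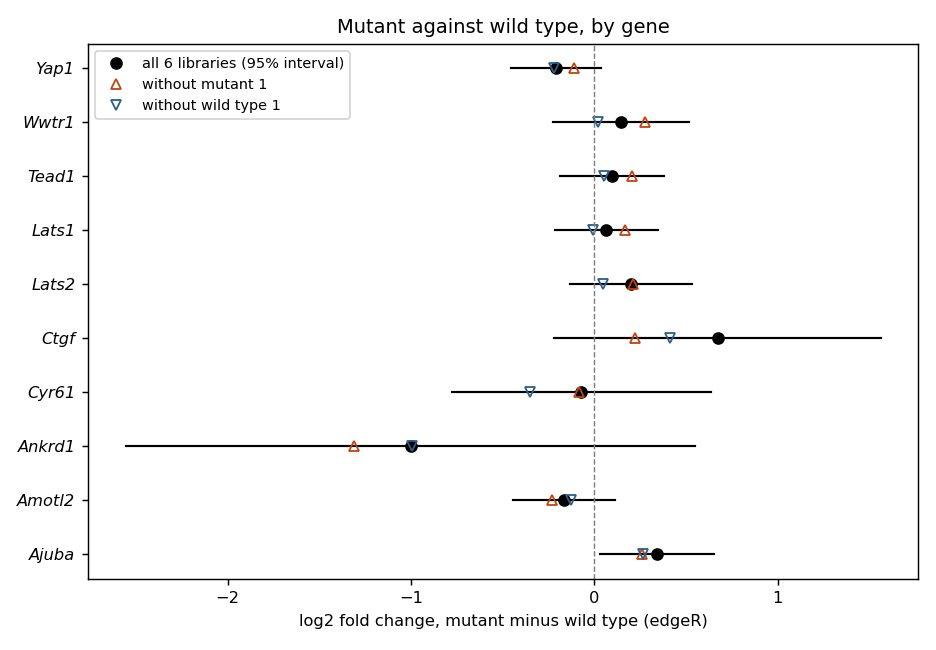
Log2 fold change of each gene, mutant minus wild type, from edgeR (horizontal axis; black points and lines, all 6 libraries with the 95% interval; open triangles, the value without mutant 1 or without wild type 1). The interval of Ajuba, 0.03 to 0.65, was the only one of the 10 that did not span 0 in this fit without a replicate block, and Ctgf moved from 0.67 to 0.22 and 0.41 when either library was left out.

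Across libraries, several of the genes were low together in wild type 1. This library had the lowest of the 6 values for 5 of the 10 genes, namely Wwtr1, Lats2, Ctgf, Cyr61 and Ajuba, against 19.1% of all tested genes. In the further lists wild type 1 was the lowest for 7 of 25 tested Hippo pathway genes and 3 of 14 tested YAP target genes. It was also the lowest for 7 of the 10 immediate early genes. Mutant 1 had the highest value for 2 of the 10, Ctgf and Ajuba, against 23.9% of tested genes. The low values of wild type 1 in these 5 genes stood beside its low immediate early level, and the part of either in the group difference was not tested.

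**Figure D5:**
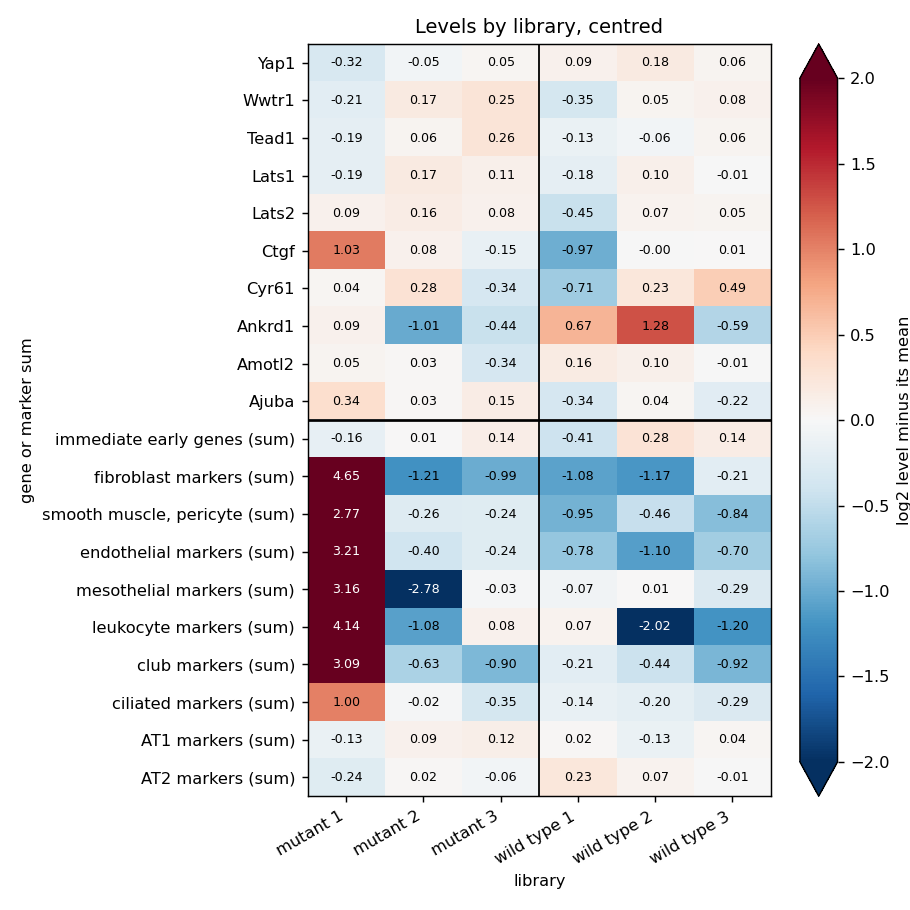
Levels of the 10 genes and summed levels of immediate early genes and cell type markers in every library (rows; columns are libraries, mutants left and wild types right; cells give the log2 level minus its mean over the 6 libraries, and colour saturates at 2 in either direction). Wild type 1 was low for Ctgf (-0.97), Cyr61 (-0.71) and immediate early genes (-0.41), and mutant 1 was high for Ctgf (1.03) and for fibroblast (4.65) and leukocyte (4.14) markers.

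The genes with profiles most like those of Ctgf and Cyr61 were sought among 8626 others with a mean of at least 10 CPM, as the smallest root mean square difference of centred log2 levels. For Ctgf over 6 libraries these were Hspa1a, a heat shock protein gene that has a near-identical copy, Fam71a and Fyn, a Src-family kinase gene, at differences of 0.12, 0.14 and 0.15 (median over all genes 0.59). Over the 5 libraries without mutant 1 they were Gdnf, Ptgs2 and Ahr, at 0.05, 0.06 and 0.06 (median 0.39), so the nearest genes depended on that library. For Cyr61 they were Klf4, Fam46c and Crybg3 over 6 libraries, at 0.13, 0.17 and 0.18 (median 0.43), and Tob1, Klf4 and Ovol1 over 5. Klf4, a transcription factor gene, stood at 163.8, 240.7 and 162.5 CPM in the mutants and at 100.3, 210.0 and 265.9 CPM in the wild types, low in wild type 1 and high in wild type 3 as Cyr61 was. These are descriptions of 6 or 5 libraries, with no test.

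Of 28 further Hippo pathway genes, 25 passed the filter on low counts, and the 3 that did not were Dchs1, Vgll1 and Vgll3. None of the 25 passed the test, with 10 positive and 15 negative log2 fold changes and a median of -0.02. On the higher side Stk38, an NDR kinase gene of the LATS family, stood at 121.2, 107.9 and 111.5 CPM in the mutants and at 86.3, 92.8 and 107.7 CPM in the wild types. Its groups met at mutant 2 and wild type 3 without overlap, and its log2 fold change was 0.25 ± 0.10 (SE; edgeR adjusted p = 0.737). Taok2 and Taok1, genes of kinases that activate the MST kinases, had log2 fold changes of 0.18 ± 0.08 and 0.18 ± 0.12. On the lower side Nf2, the gene of merlin, a membrane-linked activator of LATS kinases, stood at 89.8, 83.9 and 88.3 CPM in the mutants and at 102.8, 95.5 and 101.5 CPM in the wild types. The groups did not overlap, and the log2 fold change was -0.19 ± 0.07 (SE; edgeR adjusted p = 0.737), with a range of -0.23 to -0.17 when single libraries were left out. Vgll4, which competes with YAP for TEAD proteins, differed by -0.25 ± 0.14. In all, 2 of the 25 genes were higher and 2 lower without overlap (Stk38, Taok2, Nf2 and Tead3), near the shares of 5.23% and 6.43% over all tested genes.

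A second list held 17 further YAP target genes from a signature made in human tumours, of which 14 passed the filter and Igfbp3, Fjx1 and Foxf2 did not. None of the 14 passed in edgeR, with 9 positive and 5 negative values and a median of 0.18. The median was 0.12 without mutant 1 and 0.08 without wild type 1, where 15 genes of the list passed the filter. Mutant 1 was the highest library for 7 of the 14 genes, against 23.9% of all tested genes. Tgfb2, a ligand gene of the TGF-β family and a member of this signature, stood at 4.76, 4.19 and 2.75 CPM in the mutants and at 0.41, 0.92 and 0.73 CPM in the wild types. It was the 1 gene of the 14 whose groups did not overlap, beside 5.23% of all tested genes that were higher in every mutant library. Its log2 fold change was 2.49 ± 0.44 (SE), with 2.32 without mutant 1 and 2.23 without wild type 1. Tgfb2 had 156, 98 and 78 counts in mutants 1 to 3 and 9, 23 and 18 in wild types 1 to 3, so its wild-type level rests on few counts. With all 6 libraries the edgeR adjusted p of Tgfb2 was 0.737. DESeq2 called it (adjusted p = 0.00242), as it did 0.265% of all genes, and this was known from earlier results on these data. Axl, a receptor kinase gene, and Nt5e, an ectonucleotidase gene, had log2 fold changes of 2.54 ± 1.16 and 1.63 ± 0.69 (SE). Axl reached 53.5 CPM in mutant 1, against 1.36 to 6.67 CPM elsewhere, and Nt5e reached 11.0 CPM against 1.43 to 3.07 CPM. Without mutant 1 their log2 fold changes were 0.26 and 0.47. Markers of fibroblasts, endothelium, leukocytes and club cells were all highest in that library, and their part in these values was not tested. On the lower side were Gadd45a, a stress-response gene (-0.39 ± 0.19), Rbms3 (-0.31 ± 0.20) and Arhgef17 (-0.10 ± 0.09), with overlapping groups. Gadd45a was at -0.17 without wild type 3, and without mutant 1 Rbms3 was at -0.11 and Arhgef17 at -0.022.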

How the data were processed

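RNA-seq of 3 mutant and 3 wild-type libraries was analysed. Per the labels, the authors made TruSeq mRNA libraries and ran them together on 1 flow cell. The submitters' processing notes name build mm9, CASAVA and DESeq2; the aligner, counter, annotation and strand setting (not given in the sources used here) are unknown, so overlapping genes can share reads. The deposited values were raw counts per gene symbol, 1 file per library. Promoter coordinates are on GRCm38.p6 and were not converted.

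Counts were filtered with filterByExpr (12899 genes), scaled by TMM and tested with edgeR 4.0.16 in R 4.3.3 (quasi-likelihood F-test, two-sided, group as the only term), with p-values adjusted by Benjamini-Hochberg over every tested gene and called at 5%. Standard errors and 95% intervals came from the same fit, and levels are TMM-normalised CPM. Likeness used log2 of CPM plus 0.5. The procedure was tested on simulated data, in which no library was set apart as mutant 1 was. A floor of 3 counts was 0.0977 to 0.133 CPM, and covers counting error only. No replicate pair agreed within sampling noise (chi-square per degree of freedom 18.4 to 76.7).

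Both groups carry the numbers 1 to 3. Deviations of same-numbered libraries from their group means had correlations of 0.31, 0.21 and 0.17. Each exceeded 0.1, the minimum set for treating the numbers as pairs, a pairing that comes from these data alone. The reported fit has no term for the pairs. Alternatives were DESeq2's size factors, upper-quartile factors, no filter, a filter of 1 CPM in 3 libraries, DESeq2 1.42.0 and robust dispersion. Others were limma-voom with library quality weights (limma 3.58.1), the replicate block and leaving out libraries. Leaving out mutant 1 and wild type 1 together was added after seeing the data.

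The members and lists were chosen with earlier results of these data known. Named genes were the 10 members, the TEAD paralogs, the 3 genes of lowest p in each direction of both further lists, and the 3 profiles nearest to Ctgf and to Cyr61. Dlk1, Fos, Jun, Egr1, Lum, Tcf21, Ager, Akap5, Cav1, Sftpc, Cxcl15 and the genes under the low-count filter are named outside this rule.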

Additional observations from a re-analysis of the deposited data

How the results depend on the processing

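None of the 10 genes passed the threshold in the main test or under any alternative run, and their lowest adjusted p over these was 0.458. Of 157 alternative log2 fold changes of these genes 150 kept their sign. When single libraries were left out, Tead1 ranged from -0.0175 to 0.20, Lats1 from -0.01 to 0.17 and Cyr61 from -0.35 to 0.18. With mutant 1 and wild type 1 both left out, Ctgf was -0.029. Ankrd1 gave no value under the filter of 1 CPM or with 2 libraries left out, because it was no longer tested. With the replicate block, no gene of the table was called and no sign of the 10 turned (Yap1 -0.22, Wwtr1 0.14, Ajuba 0.35). The count of called genes in the whole table was 0 in the main test and 46 in DESeq2, 0 to 1 when single libraries were left out, and 3 with mutant 1 and wild type 1 both left out.

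Among the further named genes, Tead4 was at 0.002 and turned to -0.0086 without a filter, -0.05 in limma-voom, -0.0006 with the replicate block, -0.0502 with mutant 1 and wild type 2 both left out and -0.0547 with mutant 1 and wild type 1 both left out, and ranged from -0.0541 to 0.05 without single libraries. Tead2 ranged from -0.45 to 0.23 in the same way. With mutant 1 and wild type 2 both left out, Axl was -0.12 and Arhgef17 0.0024. The cause of these turns was not tested. Depth limits Ankrd1, with 5 to 26 counts a library, Tead2, and the wild-type level of Tgfb2, with 9 to 23 counts a library.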

Other observations

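Of the 45 ratios between the 10 genes, 8 did not overlap between the groups. The share over all pairs of tested genes was not computed, so whether 8 of 45 is more than usual cannot be read. In 5 of these 8 ratios Yap1 was the denominator, namely those of Wwtr1, Tead1, Lats1, Lats2 and Ajuba. Tead1 had 0.839, 0.827 and 0.885 counts for each Yap1 count in mutants 1 to 3 and 0.656, 0.649 and 0.765 in wild types 1 to 3. For Lats1 the mutant ratios were 0.896, 0.958 and 0.854 and the wild-type ratios 0.678, 0.773 and 0.781. The ratios share the Yap1 counts and are not independent of each other, and 20.0% of all other tested genes had a ratio to Yap1 that was higher in every mutant library.

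Within the target genes, the counts of Cyr61 for each Ctgf count were 5.597, 12.7 and 9.73 for mutants and 13.3, 13.1 and 15.5 for wild types. Within the regulators, the counts of Ajuba for each Amotl2 count were 0.129, 0.106 and 0.148 for mutants and 0.0746, 0.101 and 0.0908 for wild types. Of all other tested genes, 8.23% had a ratio to Ctgf that was lower in every mutant library and 10.7% a ratio to Amotl2 that was higher. These pairs were picked out after their values were seen, and no test is given.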
